A study of Mus musculus with 24 samples.

Results

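Rhox5, Rhox6 and Rhox9 are 3 homeobox genes of the reproductive homeobox cluster on the mouse X chromosome, and their transcript levels were followed here in mouse embryonic stem cells (ESCs) before and after differentiation with retinoic acid (RA). The members were chosen by their symbols and on their measured values in these same libraries, so their own levels and differences are given as a description with no test. They are 3 of the 42 symbols of the deposited table that belong to the Rhox family, and 3 of its 54242 symbols in all. RNA-seq had been carried out on 24 libraries of CGR8 cells, an established mouse ESC line kept in serum and LIF. All cells were transfected with an siRNA, either a control (si-CTL) or one against Rsl24d1 (si-Rsl24d1), a factor needed to build the large ribosomal subunit. They were collected at day 0, in medium with LIF, or at day 4, after 4 days without LIF and with 10 nM RA, which drive the cells out of pluripotency. Day 4 against day 0 therefore compares RA, the loss of LIF and time in culture together, and these cannot be told apart. In each siRNA and day, cells were without rescue, or with rescue, in which doxycycline switched on an ectopic mouse Rsl24d1 reading frame. This gives 8 groups of 3 libraries (n = 3 in every group below). The labels give an empty vector for cells without rescue, so the vector and doxycycline differ together between the rescue states.

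Homeobox genes encode transcription factors that bind DNA through a homeodomain. The Rhox cluster is best known in the testis, ovary, germ cells and placenta, and in cells of the embryo proper its genes are held silent, with DNA methylation of their promoters as a main part of that silencing. Rhox5, also called Pem, is made in Sertoli cells of the testis and in extraembryonic tissue. Rhox6 and Rhox9, also called Psx1 and Psx2, are made in the placenta and in germ cells.

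The 3 genes lie close together on the X chromosome, and Rhox6 and Rhox9 are close copies. In GENCODE vM21 on GRCm38, Rhox5 (ENSMUSG00000095180.8) is at chrX:37804842-37808876 on the plus strand, Rhox6 (ENSMUSG00000006200.3) is at chrX:37826910-37829857 on the plus strand and Rhox9 (ENSMUSG00000068048.8) is at chrX:37899097-37901770 on the minus strand. All 3 are protein coding with 4 coding exons. The coding sequence is 639 bases in Rhox5 and 681 bases in both Rhox6 and Rhox9. The coding parts of Rhox6 and Rhox9 have equal lengths exon by exon and could be laid side by side without gaps. They are identical at 617 of 681 bases, or 90.6%. Exon 1 is shown because it holds the start codon and differs at only 3 of its 82 coding bases. Capitals mark bases that differ between the 2 genes (Rhox6 at chrX:37827098-37827179, plus strand, and Rhox9 at chrX:37901598-37901679, minus strand).
Rhox6 exon 1: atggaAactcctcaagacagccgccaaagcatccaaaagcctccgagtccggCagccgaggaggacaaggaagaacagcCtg
Rhox9 exon 1: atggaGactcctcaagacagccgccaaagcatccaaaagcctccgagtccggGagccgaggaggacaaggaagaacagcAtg

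The last 180 bases of exon 2 are shown because they hold many of the 41 differences of that exon, which thin out towards the end. Of these 180 bases, 27 differ and are in capitals (Rhox6 at chrX:37827646-37827825, plus strand, and Rhox9 at chrX:37900952-37901131, minus strand).
Rhox6 exon 2, end: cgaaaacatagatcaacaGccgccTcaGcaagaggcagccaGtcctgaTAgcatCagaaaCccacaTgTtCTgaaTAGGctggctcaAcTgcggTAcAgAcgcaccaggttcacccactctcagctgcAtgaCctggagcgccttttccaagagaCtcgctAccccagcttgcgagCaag
Rhox9 exon 2, end: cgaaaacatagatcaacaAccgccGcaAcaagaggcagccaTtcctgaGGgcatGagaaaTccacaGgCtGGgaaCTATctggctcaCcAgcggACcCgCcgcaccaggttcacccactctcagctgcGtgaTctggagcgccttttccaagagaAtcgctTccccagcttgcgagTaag

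Exon 3 has 46 bases in all 3 genes and is the one exon in which Rhox5 could be set beside the other members without gaps. Rhox6 and Rhox9 are identical there at 45 of 46 bases, or 97.8%, whereas Rhox5 shares 27 bases with Rhox6 (58.7%) and 28 with Rhox9 (60.9%). Capitals mark the 19 positions that are not the same in all 3 (Rhox5 at chrX:37806074-37806119, Rhox6 at chrX:37828415-37828460 and Rhox9 at chrX:37900280-37900325).
Rhox5 exon 3: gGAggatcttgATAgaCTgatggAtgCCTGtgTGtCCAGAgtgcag
Rhox6 exon 3: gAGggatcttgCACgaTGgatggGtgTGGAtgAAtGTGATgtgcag
Rhox9 exon 3: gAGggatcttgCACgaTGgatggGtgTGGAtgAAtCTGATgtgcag

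This likeness bears on how reads can be told apart. Salmon, which made the deposited values, assigns reads to transcripts by matching short words of sequence. Of the distinct 31-base words in the GENCODE transcript of Rhox6, 23.3% (228 of 980) also occur in Rhox9. Those same words are 9.08% of the 2512 in the 2 GENCODE transcripts of Rhox9 together. The transcript with the coding sequence shown here has 882 bases, so most of the 2512 words come from the other transcript. The shared part of the shorter transcript alone was not counted and can be larger. Rhox5 shares 0 of its 724 words with any other Rhox gene. Within the family Rhox5 could therefore be counted on its own, whereas part of the reads of Rhox6 and Rhox9 could come from either gene. Words shared with genes outside the family were not searched. The remaining family is less separable still. In Rhox2a 97.5% of the words, in Rhox4a 94.9% and in Rhox7a 67.5% occur in another Rhox gene, so values for the Rhox2, Rhox4 and Rhox7 copies are uncertain between copies. Rhox10 and Rhox13 share 0% and Rhox1 shares 0.117%.

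Among the 3 members, RefSeq start windows were at hand for Rhox5. The RefSeq start of Rhox5 (GRCm38.p6) lies 50.2 kb upstream of the GENCODE start, so the window is that of a far upstream start and not of the start next to the first coding exon. It is shown because DNA methylation acts at CpG. The 250 bases before that start (chrX:37754358-37754607, plus strand) hold 4 CpG, in capitals.
Rhox5 upstream: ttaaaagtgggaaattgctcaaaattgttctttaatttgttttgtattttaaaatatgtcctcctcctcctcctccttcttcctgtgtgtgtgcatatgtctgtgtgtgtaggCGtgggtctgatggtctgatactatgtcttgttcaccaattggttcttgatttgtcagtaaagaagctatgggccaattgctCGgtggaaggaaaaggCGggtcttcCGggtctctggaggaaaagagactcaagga
Over 32851 such windows of all genes the median was 6 CpG, and 44.4% of windows held no more CpG than Rhox5. The AGGTCA half-site of retinoic acid receptors, searched on both strands, had 0 matches in the Rhox5 window and occurs in 14% of all windows. Its direct repeat spaced by 5 bases also had 0 matches, and occurs in 0.00913% of windows. No match says only that these letters are not in this window.

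Expression is given as TPM, a length-corrected share of each library's transcripts scaled to a sum of 1000000, or on the deposited scale of log2(TPM + 1). Because of the length correction, levels can be compared between genes. Library depth cannot be recovered from TPM, and precision rests on the 3 libraries per group. A gene other than a member was called when it passed limma's moderated test at an adjusted p below 0.01 (Benjamini-Hochberg over the 16447 genes tested) with a change of over 1.8-fold on the log2(TPM + 1) scale. Rsl24d1 itself checked the labels. At day 0 without rescue it was at 141 ± 6.08 TPM (SD) in si-CTL and 35.7 ± 2.72 in si-Rsl24d1, a fall of 1.95 ± 0.07 (SE) on the log2 scale (adjusted p = 3.24e-14 in limma). At day 4 it was at 97.9 ± 2.74 TPM in si-CTL and 95.1 ± 5.33 in the libraries labelled si-Rsl24d1 (adjusted p = 0.66 in limma), so the targeted mRNA was not lower at that time and the day 4 groups rest on their labels alone. The pluripotency gene Pou5f1 was at 1112 ± 15.0 TPM in si-CTL at day 0, as the ESC label has it. With rescue the Rsl24d1 value also counts the ectopic transcript.

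At day 0 the members differed widely in level, and at day 4 all 3 were higher in every condition. In si-CTL cells without rescue, Rhox5 was at 73.8, 76.5 and 75.1 TPM at day 0 and at 280, 289 and 257 TPM at day 4. Rhox6 was at 5.28, 5.25 and 5.99 TPM at day 0 and at 45.5, 48.0 and 44.2 TPM at day 4. Rhox9 was at 5.48, 4.78 and 6.37 TPM at day 0 and at 40.7, 47.6 and 45.2 TPM at day 4. The day 0 and day 4 libraries did not overlap for any member, and Rhox6 and Rhox9 sat at nearly the same level on both days. The mean TPM at day 4 was 3.67-fold that at day 0 for Rhox5, 8.33-fold for Rhox6 and 8.03-fold for Rhox9. On the log2(TPM + 1) scale the difference was 1.86 ± 0.05 (SE) for Rhox5, 2.85 ± 0.09 for Rhox6 and 2.80 ± 0.11 for Rhox9.

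**Figure D1:**
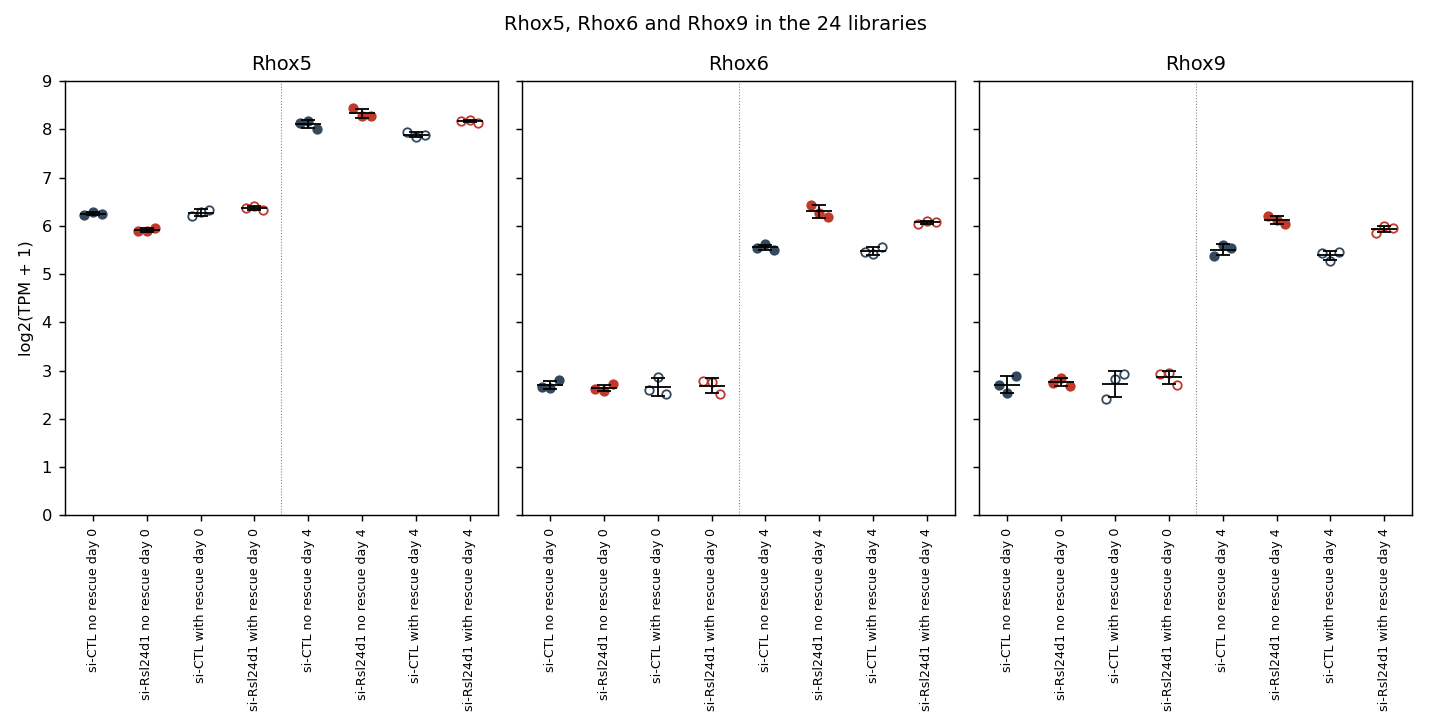
Levels of Rhox5, Rhox6 and Rhox9 as log2(TPM + 1) in the 8 groups, with day 0 left and day 4 right of the dotted line. Points are libraries (dark for si-CTL, red for si-Rsl24d1, open with rescue) and bars are the mean ± SD of 3 libraries. Every day 4 library lies above every day 0 library of the same gene.

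The same step was seen in the other 3 conditions. For Rhox5 the day 4 minus day 0 difference was 2.42 in si-Rsl24d1 without rescue, 1.62 in si-CTL with rescue and 1.8 in si-Rsl24d1 with rescue. For Rhox6 these differences were 3.66, 2.81 and 3.38, and for Rhox9 they were 3.36, 2.66 and 3.08. All 3 members were free of overlap between the days in all 4 conditions. Over all genes tested, the share with day 4 higher and no overlap was 28.9% in si-CTL and 34.3% in si-Rsl24d1 without rescue, and 43.8% and 38.9% with rescue. Since the members were picked on these values, nothing is read from their count.

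Rhox6 and Rhox9 ran in step, and Rhox5 did not keep a fixed ratio to them. The Rhox6 to Rhox9 ratio of TPM ranged from 0.711 to 1.18 (median 0.924) over the 12 day 0 libraries and from 0.978 to 1.18 (median 1.10) over the 12 day 4 libraries. Rhox5 was 11.0 to 16.9 times the Rhox6 level at day 0 and 4.03 to 6.16 times at day 4. The lowest Rhox5 to Rhox6 ratio by group was 4.13 ± 0.16 (SD), in the day 4 libraries labelled si-Rsl24d1 without rescue, against 6.00 ± 0.17 in si-CTL of that day. Across the 24 libraries Pearson's r of log2(TPM + 1) was 0.997 between Rhox6 and Rhox9, 0.989 between Rhox5 and Rhox6 and 0.989 between Rhox5 and Rhox9. Most of that is the difference between the days. Within the 12 day 4 libraries r was 0.984 for Rhox6 with Rhox9 and 0.866 for Rhox5 with Rhox6, and within the 12 day 0 libraries it was 0.329 and 0.216. These coefficients describe shared libraries and, for Rhox6 and Rhox9, shared sequence words, and carry no test.

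**Figure D2:**
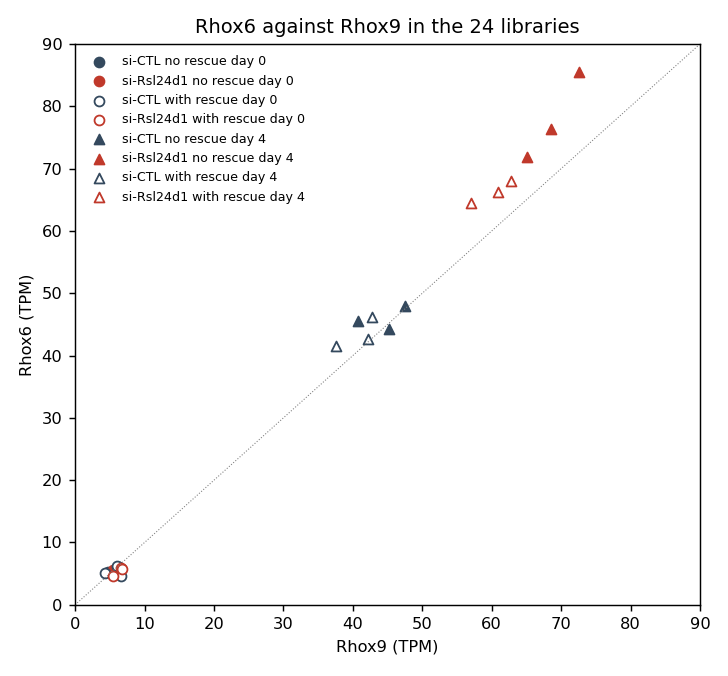
Rhox6 against Rhox9 in TPM, 1 point per library, circles for day 0 and triangles for day 4, dark for si-CTL, red for si-Rsl24d1 and open with rescue. The dotted line marks equal levels. The 12 day 0 libraries crowd below 7 TPM, and all 6 day 4 libraries labelled si-Rsl24d1 lie above the line and beyond the si-CTL libraries.

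The other Rhox genes, which were taken by family name, were mostly lower than the members, and several were higher at day 4. Rhox13 came closest at day 0, at 3.41, 3.62 and 3.93 TPM in si-CTL. Of 39 such symbols 13 passed the filter of a mean log2(TPM + 1) of 0.5 over all 24 libraries, and 8 were listed at 0 in every library. Of the 26 that did not pass, the highest values in any library were 1.31 TPM for Rhox4a2, 1.18 for Rhox2b and 1.11 for Rhox2c. In si-CTL without rescue, 11 of the 13 were called higher at day 4 and 0 lower, where 6.77% of all genes tested were called higher and 8.24% lower. That count is in part set by the filter. Rhox2g, Rhox4a, Rhox4e, Rhox4g, Rhox7a, Rhox7b and Rhox7-ps1, 7 of the 13, were under 0.5 on average at day 0 and entered through their day 4 values, so they had to be higher at day 4. The other 6 had a day 0 mean of at least 0.5. When the filter was set on day 0 alone, 5 of these 6 were called higher in si-CTL without rescue and 0 lower, where 5.96% of the 16093 genes then tested were called higher. In si-Rsl24d1 without rescue 3 of 6 were called higher, and with rescue 4 of 6 in each siRNA. With the filter over all libraries the counts in these 3 conditions were 6, 10 and 9 of 13, where 7.93%, 10.7% and 9.34% of all genes were called higher. The one of the 6 that did not pass in si-CTL was Rhox2-ps (0.40 ± 0.18 (SE), adjusted p = 0.0548 in limma).

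Of the 6 genes detected on average at day 0, Rhox2a had the largest difference on the log2(TPM + 1) scale. It was at 0.865, 0.746 and 0.543 TPM at day 0 and at 6.97, 6.39 and 8.08 TPM at day 4 in si-CTL, a rise of 2.24 ± 0.12 (SE, adjusted p = 1.61e-12 in limma). The days did not overlap, although Rhox2a shares most of its sequence words with its own copies. Of the genes that share almost no words, Rhox1, the first gene of the cluster, rose by 1.28 ± 0.09 (adjusted p = 9.52e-11), Rhox13, the last protein-coding one, by 1.15 ± 0.10 (adjusted p = 5.57e-09) and Rhox10 by 0.90 ± 0.14 (adjusted p = 1.33e-05). Without si-CTL day 4 replicate 3, Rhox10 differed by 0.79 and was under the fold threshold. Rhox7-ps2 rose by 1.53 ± 0.28 (adjusted p = 8.07e-05). For the 7 genes that entered through day 4 the differences are given with no test. They were 2.21 for Rhox7a, which was at 0, 0.189 and 0.158 TPM at day 0 and at 4.28, 3.78 and 4.44 TPM at day 4, 1.36 for Rhox4g, 1.25 for Rhox7b, 1.16 for Rhox4a, 1.02 for Rhox2g, 1.00 for Rhox4e and 0.75 for Rhox7-ps1. The 3 members made up 88.5% of all Rhox TPM in si-CTL at day 0 and 88.1% at day 4, as their sum went from 86.2 ± 1.46 to 366 ± 19.2 TPM (SD) and that of the other Rhox genes from 11.2 ± 1.27 to 49.2 ± 2.93 TPM.

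The genes next to the cluster did not move as a block. The 10 protein-coding genes of the table nearest on each side were examined, and 13 of the 20 passed the filter. In si-CTL without rescue 1 was called higher and 1 lower at day 4, and the median difference of the 13 was -0.12, against -0.10 for all genes tested. The one called higher was Gm9, the nearest gene before Rhox1, which rose by 1.21 ± 0.12 (SE, adjusted p = 2.78e-08 in limma). The one called lower was Nkrf, a repressor of NF-kappaB target genes, which fell by 1.26 ± 0.08 (adjusted p = 3.89e-11).

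**Figure D3:**
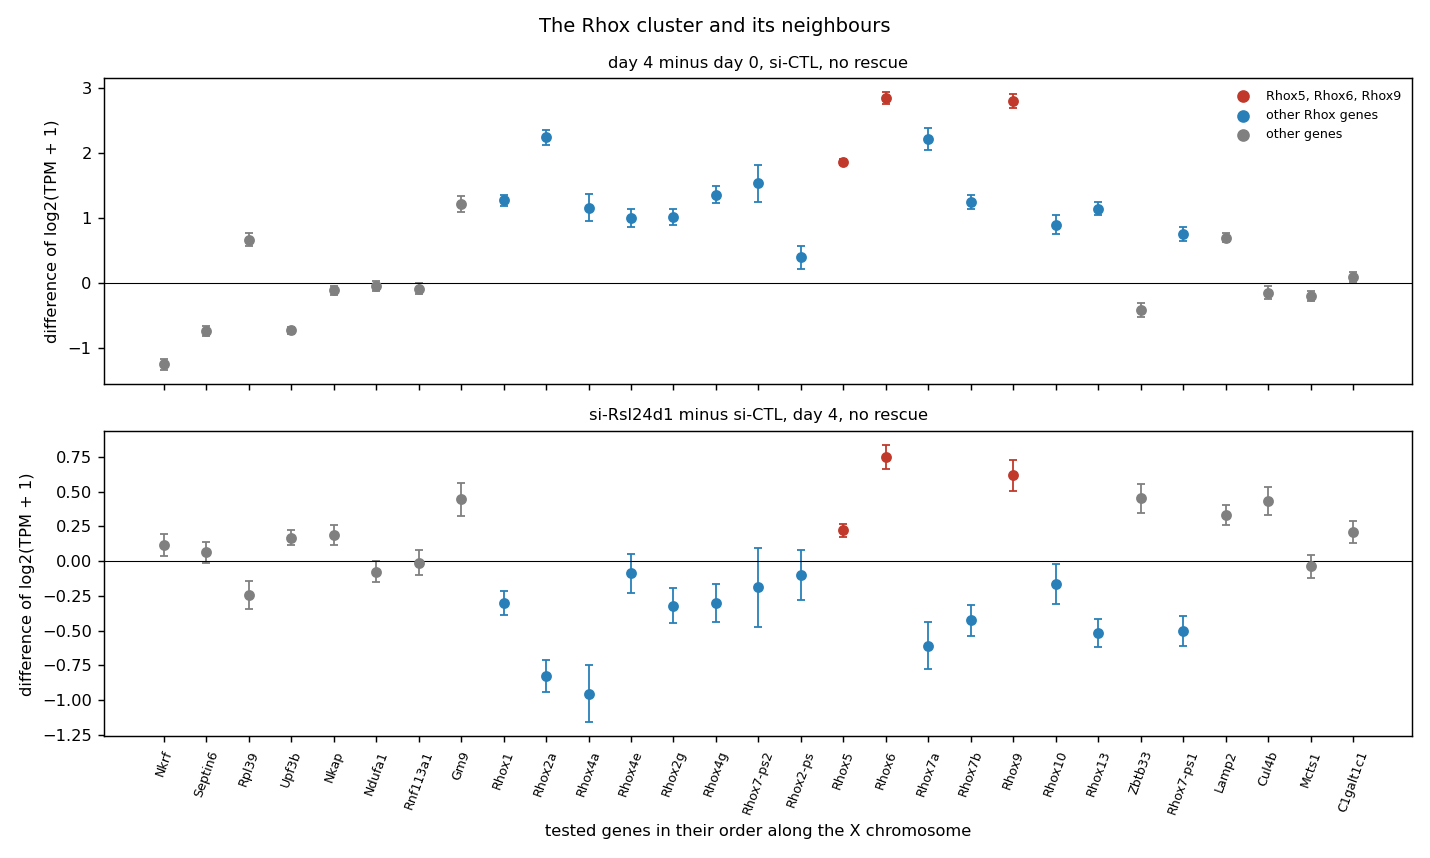
Differences of log2(TPM + 1) with their SE for tested genes in their order along the X chromosome, above for day 4 minus day 0 in si-CTL and below for si-Rsl24d1 minus si-CTL at day 4, both without rescue. Red marks Rhox5, Rhox6 and Rhox9, blue the other Rhox genes and grey the genes around them. In the upper panel all 16 Rhox genes are above 0, but the 3 members were chosen on these values and 7 of the others entered through their day 4 values. In the lower panel the 3 members are above 0 and the 13 other Rhox genes below it.

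At day 0 the knockdown of Rsl24d1 was accompanied by a lower level of Rhox5 and by no separation for Rhox6 and Rhox9. Rhox5 was at 58.1, 58.7 and 61.1 TPM in si-Rsl24d1, below the 73.8 to 76.5 TPM of si-CTL, and the groups did not overlap. The ratio of mean TPM was 0.790 and the difference was -0.34 ± 0.05 (SE). Of all genes tested, 27.3% were lower with no overlap in this comparison. Rhox6 (difference -0.06 ± 0.09) and Rhox9 (0.06 ± 0.11) overlapped between the siRNAs. With rescue, Rhox5 was at 81.8, 83.7 and 78.9 TPM in si-Rsl24d1 and at 72.3, 77.2 and 79.3 TPM in si-CTL. These groups overlapped, with a difference of 0.10 ± 0.05. Of the 13 other Rhox genes, 0 were called in either direction at day 0 without rescue, where 3.4% of all genes were called higher and 0.772% lower. By the adjusted p alone, 1 passed below 0.01 in limma (Rhox10, named after its value was seen). The share of all genes by the adjusted p alone is not given for day 0, so nothing is read from that 1.

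At day 4 the libraries labelled si-Rsl24d1 held more of Rhox6 and Rhox9 than those of si-CTL. Without rescue Rhox6 was at 85.5, 76.3 and 71.8 TPM and Rhox9 at 72.6, 68.5 and 65.1 TPM, so all 3 libraries lay above the highest si-CTL library (48.0 TPM for Rhox6 and 47.6 TPM for Rhox9). The difference was 0.75 ± 0.09 (SE) for Rhox6 and 0.62 ± 0.11 for Rhox9, which is 1.70-fold and 1.54-fold in mean TPM. Rhox5 was at 347, 307 and 310 TPM and differed by 0.22 ± 0.05, or 1.17-fold. None of the 3 differences reached 1.8-fold. All 3 members were higher with no overlap, as were 37.1% of all genes tested.

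The setting of the scale matters for Rhox5 in this comparison. The median over all genes tested was shifted by 0.13 between these groups, so libraries were also scaled by the median of ratios, which brought that shift to 0.005. The differences were then 0.06 ± 0.08 (SE) for Rhox5, with overlapping groups, 0.59 ± 0.11 for Rhox6 and 0.46 ± 0.13 for Rhox9, both still without overlap. With rescue, where the median shift was -0.04 as deposited, the differences were 0.28 ± 0.05, 0.60 ± 0.09 and 0.55 ± 0.11 for Rhox5, Rhox6 and Rhox9. All 3 were free of overlap with rescue, where 10.8% of all genes were higher with no overlap, and they stayed so after scaling (0.34, 0.65 and 0.61).

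The other Rhox genes lay on the opposite side in the same libraries. At day 4 without rescue, all 13 had a lower mean in the libraries labelled si-Rsl24d1 (also after median-of-ratios scaling), with a median difference of -0.32 against 0.13 over all genes tested. By the adjusted p alone, 7 of the 13 were lower (6.04% of all genes), and these 7 were also the ones without overlap (11.3% of all genes were lower with no overlap). Among them Rhox4a, Rhox7a, Rhox7b and Rhox7-ps1 entered the filter through their day 4 values, where si-CTL was the higher group. The count is therefore in part set by the filter, and copies that share sequence words are not independent. With the fold threshold only Rhox4a was called (0.182% of all genes were called lower). Rhox4a was at 1.54, 1.56 and 2.50 TPM in si-CTL and at 0, 0.414 and 1.20 TPM in si-Rsl24d1, a difference of -0.96 ± 0.21 (SE, adjusted p = 0.00114 in limma). This call was lost without si-CTL replicate 3 (-0.80) or without si-Rsl24d1 replicate 1 (-0.68). Its near copy Rhox4a2, with 98.2% of its sequence words in Rhox4a, went the other way. Rhox4a2 was at 0, 0 and 0 TPM in si-CTL and at 1.31, 0.889 and 0 TPM in si-Rsl24d1. A lower level of Rhox4a therefore cannot be told apart from reads assigned to the other copy.

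Rhox2a and Rhox13 were among the 7, passing the test without reaching 1.8-fold. Rhox2a was at 6.97, 6.39 and 8.08 TPM in si-CTL and at 4.09, 3.21 and 3.48 TPM in the libraries labelled si-Rsl24d1, and fell by 0.83 ± 0.12 (SE) on the log2 scale (adjusted p = 2.09e-05 in limma). Rhox13, which shares no sequence words with another Rhox gene, fell from 9.93, 8.87 and 9.09 TPM to 6.83, 5.77 and 6.00 TPM, by 0.52 ± 0.10 (adjusted p = 0.000527). Both sets of groups were clear of each other. Rhox7a fell by 0.61 ± 0.17 (adjusted p = 0.00699), Rhox7-ps1 by 0.51 ± 0.11 (adjusted p = 0.000931), Rhox7b by 0.43 ± 0.11 (adjusted p = 0.00467) and Rhox1 by 0.30 ± 0.09 (adjusted p = 0.00816). The sum of the 13 and the unfiltered Rhox genes was 49.2 ± 2.93 TPM (SD) in si-CTL and 33.5 ± 1.86 TPM in si-Rsl24d1, while that of the 3 members was 366 ± 19.2 and 468 ± 32.2 TPM.

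With rescue the 13 genes lay on both sides of 0, 6 above and 7 below, with a median difference of -0.06 against -0.04 over all genes tested. Rhox2a differed by 0.01 ± 0.12 (SE, adjusted p = 0.972 in limma) and Rhox13 by -0.10 ± 0.10 (adjusted p = 0.591). Rhox7a (-0.33 ± 0.17) overlapped between the siRNAs, Rhox7-ps1 (-0.28 ± 0.11) and Rhox7-ps2 (-0.38 ± 0.28) were lower without overlap and Rhox10 (0.40 ± 0.14) was higher without overlap, but none of these 4 passed the test (adjusted p = 0.228, 0.0944, 0.453 and 0.0741). By the adjusted p alone, 1 of 13 was lower, namely Rhox7b (-0.47 ± 0.11, adjusted p = 0.00838), where 3.53% of all genes were. Rhox7b also entered the filter through its day 4 values. The difference of the siRNA effect between the rescue states was itself tested, and for Rhox2a it was 0.84 ± 0.16 (adjusted p = 0.00275), the only one of the 13 above 0 with an adjusted p below 0.01 (0.699% of all genes). The difference of the siRNA effect between day 4 and day 0 without rescue was below 0 with an adjusted p below 0.01 for Rhox2a, Rhox7a, Rhox10 and Rhox13, 4 of 13, where 8.83% of all genes were. Rhox7a is 1 of the 7 genes that entered through their day 4 values. Their low day 0 values leave little room for an siRNA effect at day 0, so nothing is read from this count. For the members the difference of the siRNA effect between the days was 0.56 for Rhox5, 0.81 for Rhox6 and 0.56 for Rhox9, given with no test.

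**Figure D4:**
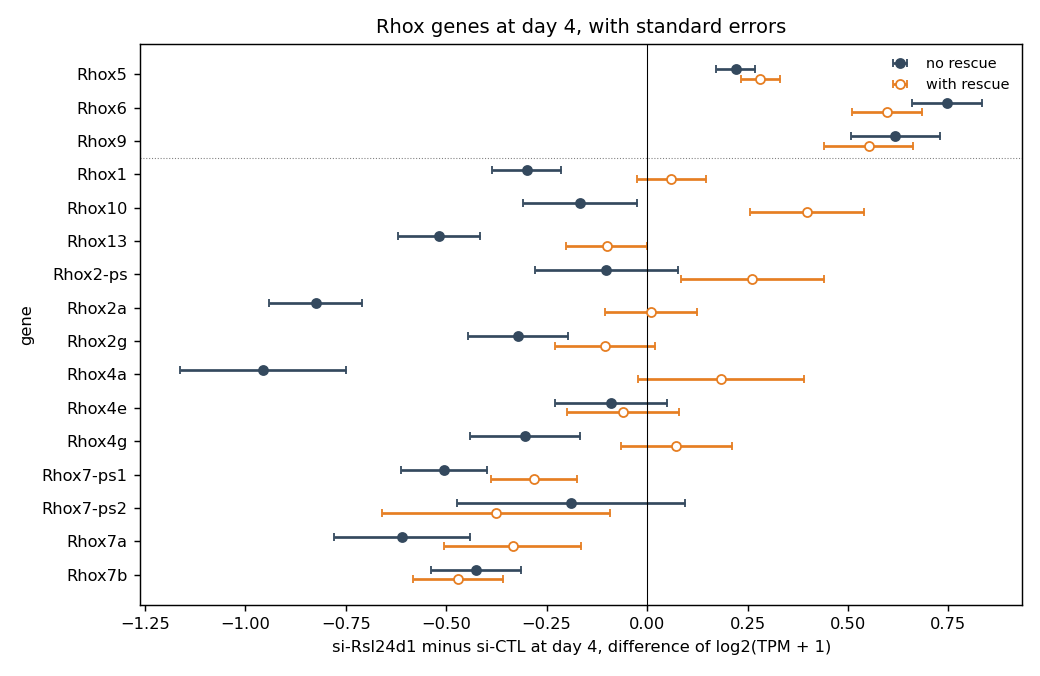
si-Rsl24d1 minus si-CTL at day 4 as a difference of log2(TPM + 1) with its SE, filled without and open with rescue, for Rhox5, Rhox6 and Rhox9 above the dotted line and the 13 other tested Rhox genes below it. Without rescue the members lie between 0.22 and 0.75 and the others between -0.96 and -0.09. With rescue the members lie between 0.28 and 0.60 and the others on both sides of 0.

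Rescue on its own went with small differences. At day 0 in si-Rsl24d1, Rhox5 was higher with rescue by 0.45 ± 0.05 (SE) with no overlap (9.55% of all genes were), whereas Rhox6 (0.04 ± 0.09) and Rhox9 (0.10 ± 0.11) overlapped. At day 4 in si-CTL, Rhox5 was lower with rescue, with a difference of -0.22 ± 0.05 and no overlap (8.87% of all genes), and Rhox6 and Rhox9 overlapped. At day 4 in si-Rsl24d1 all 3 were lower with rescue, with no overlap (18.6% of all genes) and differences of -0.16 for Rhox5, -0.23 for Rhox6 and -0.19 for Rhox9. These depend on the scale, since the median over all genes was shifted by -0.11, 0.09 and -0.07 in these 3 comparisons. After median-of-ratios scaling Rhox5 differed by 0.57 at day 0, all 3 members were lower with no overlap in si-CTL at day 4 (-0.36, -0.21 and -0.25 for Rhox5, Rhox6 and Rhox9), and all 3 overlapped in si-Rsl24d1 at day 4 (-0.09, -0.15 and -0.11).

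Set in order by mean level, the 4 day 4 groups came in the same order for Rhox6 and Rhox9. The 4 day 0 groups, whose order differed between the genes, had means of 5.24 to 5.51 TPM for Rhox6 and 5.54 to 6.28 TPM for Rhox9, and each overlapped its neighbour in the order. Above them came si-CTL with rescue (43.5 and 40.8 TPM) and si-CTL without (45.9 and 44.5 TPM), which overlapped each other. Then came the libraries labelled si-Rsl24d1 with rescue (66.2 and 60.3 TPM) and, highest, those without (77.9 and 68.7 TPM), each clear of the group below. The separation between the rescue states depends on the scale. After median-of-ratios scaling they overlapped in si-Rsl24d1 for both genes, and in si-CTL they did not. For Rhox5 the lowest group was si-Rsl24d1 without rescue at day 0 (59.3 TPM), clear of the other 3 day 0 groups (75.1 to 81.5 TPM). At day 4 Rhox5 went from 236 TPM in si-CTL with rescue through 275 and 286 TPM, which overlapped, to 321 TPM in si-Rsl24d1 without rescue.

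Outside the family, the genes whose pattern was most like that of Rhox6 over the 24 libraries were H19 (r = 0.998), an imprinted long non-coding RNA expressed from the maternal allele, Sin3b (r = 0.996), a corepressor subunit, and Meis2 (r = 0.995), a homeobox gene. The same 3 genes stood nearest to Rhox9, with r of 0.995 for H19, 0.993 for Meis2 and 0.992 for Sin3b. For Rhox5 they were Dlk1 (r = 0.990), an imprinted gene of the Notch ligand family expressed from the paternal allele, Igfbp7 (r = 0.990), a secreted binding protein, and Crabp2 (r = 0.987), which carries RA to its receptor. Values over the 2 days make high r common, since 406 to 572 tested genes had an r above 0.95 with a given member. Over the 12 libraries of each day, H19 had a mean log2(TPM + 1) of 5.21 at day 0 and 9.30 at day 4, and Dlk1 one of 2.29 and 6.24.

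Several genes that write, read and remove DNA methylation were lower at day 4, most of all in si-CTL without rescue. Of 14 DNA methylation enzymes and cofactors, 9 were called lower and 0 higher at day 4 in si-CTL without rescue, with a median difference of -1.01 against -0.10 over all genes tested. The enzymes that add new methylation fell, with a difference of -2.99 ± 0.09 (SE) for Dnmt3b (adjusted p = 5.74e-16 in limma) and -1.93 ± 0.10 for Dnmt3a (adjusted p = 9.94e-13). Tet1, which oxidises methylcytosine and so works against methylation, fell by 1.5 ± 0.17 (adjusted p = 1.78e-07). In the other 3 conditions 2 (si-Rsl24d1 without rescue), 3 (si-CTL with rescue) and 2 (si-Rsl24d1 with rescue) of the 14 were called lower, with medians of -0.43, -0.40 and -0.39. DNA methylation was not measured in these data, and its part in the levels of the Rhox genes was not tested. Of 17 H3K9 methylation and silencing factors, 4 were called lower and 0 higher, with a median of -0.58, and 0, 1 and 1 were called lower in the other 3 conditions in the same order. The 4 included L3mbtl2, a member of a repressor complex that silences germline genes, which fell by 1.51 ± 0.06 (adjusted p = 1.06e-13), Cbx1, a heterochromatin protein, by 1.11 ± 0.05 (adjusted p = 1.14e-13) and Trim28, a corepressor that recruits H3K9 methylation, by 1.03 ± 0.05 (adjusted p = 7.86e-13). Of all genes tested, 8.24% were called lower in si-CTL without rescue. With the filter set on day 0 alone the counts of both lists were the same. Of the 16093 genes then tested, 1045, 796 and 922 were called lower in the other 3 conditions. Nothing is read from the 0, 1 and 1 H3K9 factors.

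Germline genes known to depend on DNA methylation for their silencing were higher at day 4 in many cases. Of 19 such genes 8 were called higher at day 4 and 0 lower in si-CTL without rescue, with a median of 0.74, and with the filter set on day 0 alone 6 of 17 were. In the other 3 conditions, in the order above, 5, 11 and 9 of 19 were called higher. With the filter set on day 0 alone these counts were 4, 9 and 7 of 17. Of all genes tested, 6.77% were called higher and 8.24% lower in si-CTL without rescue. In the other 3 conditions 7.93%, 10.7% and 9.34% were called higher. Dazl, an RNA-binding protein of germ cells, rose by 3.40 ± 0.10 (SE, adjusted p = 3.5e-16 in limma), Tuba3b, a testis tubulin, by 2.40 ± 0.10 (adjusted p = 1.31e-13) and Dppa3, a maternal factor that guards against loss of methylation, by 2.05 ± 0.06 (adjusted p = 9.09e-16). Tuba3b has a close copy, Tuba3a, and its value is uncertain between the copies. Of 11 primordial germ cell regulators 3 were called higher, Dppa3 again, Ifitm3 (0.91 ± 0.07, adjusted p = 3.44e-10) and Kit (0.89 ± 0.09, adjusted p = 2.29e-08), and 2 lower, T and Sall4 (-1.24 ± 0.14, adjusted p = 2.5e-07). T is also known as a mesoderm gene and Sall4 as a pluripotency gene.

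**Figure D5:**
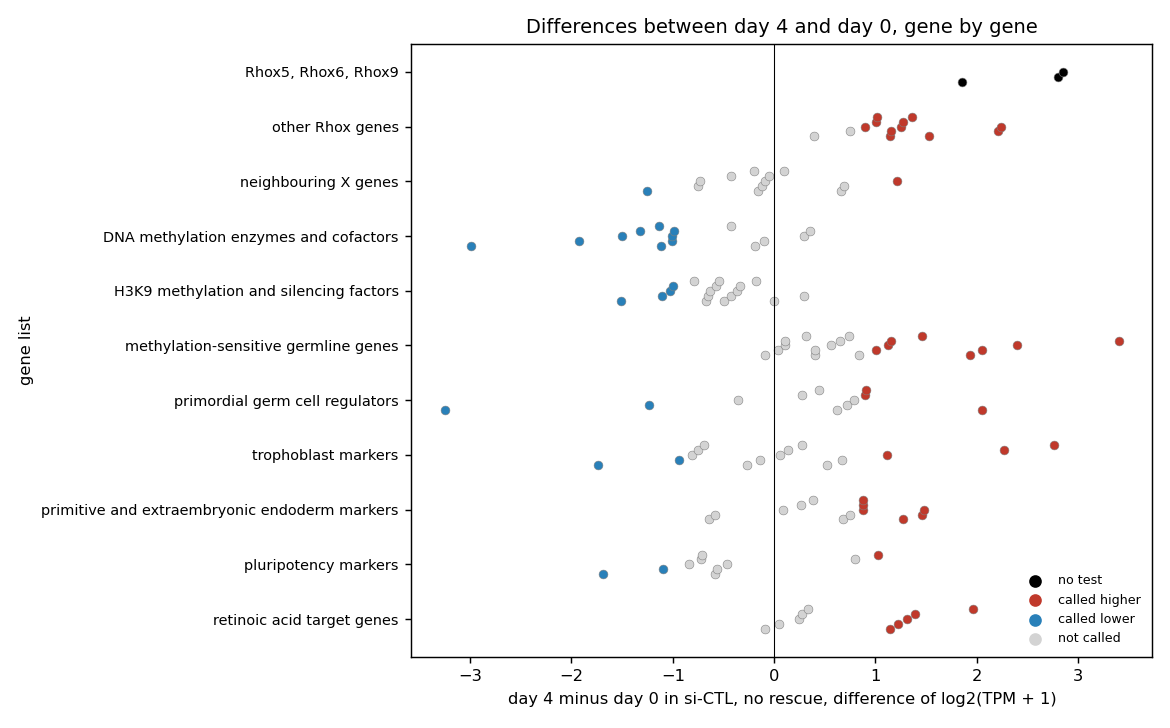
Day 4 minus day 0 in si-CTL without rescue as a difference of log2(TPM + 1), 1 point per tested gene, for the 3 members (black, no test), the other Rhox genes, the neighbouring X chromosome genes (here with Zbtb33, which is also in the DNA methylation list) and 8 gene lists. Red marks genes called higher, blue genes called lower and grey genes not called. The other Rhox genes, 7 of which entered through their day 4 values, lie at 0.40 or above, and 12 of the 14 DNA methylation genes lie below 0.

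At day 4 the siRNA comparison without rescue placed the germline list on the side of the other Rhox genes. In the libraries labelled si-Rsl24d1 without rescue, 12 of 19 germline genes were lower by the adjusted p alone (6.04% of all genes) and 1 higher (24.9%), with 0 called with the fold threshold, and their median was -0.42, against 0.13 over all genes. Dazl fell by 0.71 ± 0.10 (SE, adjusted p = 1.96e-05 in limma) and Dppa3 by 0.56 ± 0.06 (adjusted p = 1.92e-06). Of the DNA methylation list 9 of 14 were higher by the adjusted p alone and 0 lower, with a median of 0.38. Dnmt3a rose by 0.64 ± 0.10 (adjusted p = 4.47e-05) and Dnmt3b by 0.60 ± 0.09 (adjusted p = 4.26e-05). With rescue, 1 of 14 was higher by the adjusted p alone (2.33% of all genes), and 3 of 19 germline genes were lower (3.53% of all genes).

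At day 0 the same lists were little called with the siRNA without rescue, where 3.4% of all genes tested were called higher and 0.772% lower. Of the germline list Hormad1, a meiotic chromosome axis protein, was called higher (0.90 ± 0.06 (SE), adjusted p = 8.27e-10 in limma), and of the germ cell regulators Tcl1, a cofactor of the Akt kinase, lower (-1.25 ± 0.06, adjusted p = 3.21e-12). Of the pluripotency markers Esrrb (-1.09 ± 0.08, adjusted p = 2.67e-09) and Zfp42 (-0.96 ± 0.05, adjusted p = 4.04e-12) were called lower, of the RA targets 1 was called higher and 1, Stra8, lower (-0.87 ± 0.11, adjusted p = 1.41e-06), and of the trophoblast markers Gcm1 higher (1.20 ± 0.08, adjusted p = 4.26e-10). In the DNA methylation, H3K9, endoderm and neighbour lists 0 were called, with 2, 3, 0 and 2 higher and 4, 8, 2 and 0 lower by the adjusted p alone. The share of all genes by the adjusted p alone is not given for day 0, so nothing is read from those last counts.

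RA target genes and markers of other cell types were read beside the members. Of 10 tested RA target genes 5 were called higher at day 4 in si-CTL and 0 lower, among them Stra8, which starts meiosis (1.97 ± 0.11 (SE), adjusted p = 3.24e-12 in limma), and Crabp2 (1.31 ± 0.07, adjusted p = 7.23e-12). That count is in part set by the filter, since some of the 10 entered through their day 4 values. With the filter set on day 0 alone it was 4 of 7, where 5.96% of all genes then tested were called higher. Of 10 pluripotency markers 2 were called lower, Tdgf1 (-1.69 ± 0.03, adjusted p = 4.02e-18) and Pou5f1 (-1.10 ± 0.04, adjusted p = 4.22e-15), and 1 higher, Dppa5a (1.03 ± 0.07, adjusted p = 5.83e-11). By the adjusted p alone, 8 were lower and 2 higher. At day 4 with the siRNA, without rescue, 0 genes of the RA, pluripotency and germ cell regulator lists were called. By the adjusted p alone, 5 of 10, 2 of 10 and 1 of 11 were higher, where 24.9% of all genes were. On the other side 1, 1 and 3 were lower, where 6.04% of all genes were. In bulk RNA a change in a share of the cells cannot be told from a change in all of them, nor fewer cells of a type from less RNA per cell, and this holds for each difference given here.

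Rhox5, Rhox6 and Rhox9 are also made in extraembryonic tissue, so its markers are given with their whole lists. Of 17 primitive and extraembryonic endoderm markers 13 were tested, and 6 were called higher at day 4 in si-CTL and 0 lower, among them Dab2 (1.48 ± 0.13 (SE), adjusted p = 8e-09 in limma), Cubn (1.46 ± 0.15, adjusted p = 5.17e-08) and Col4a2 (1.28 ± 0.10, adjusted p = 7.81e-10). Without si-CTL day 4 replicate 1 the count was 3, and with the filter set on day 0 alone it was 5 of 10. The summed list was at 252 to 274 TPM at day 0 and at 434 to 482 TPM at day 4 in si-CTL, and at 637 to 784 TPM in the day 4 libraries labelled si-Rsl24d1, all without rescue. In that last comparison 6 of 13 were called higher (1.45% of all genes were), the direction of Rhox6 and Rhox9. With rescue 0 of 13 were called in the same comparison and 3 were higher by the adjusted p alone (2.33% of all genes). The sum was then at 491 to 525 TPM in si-CTL and 565 to 577 TPM in si-Rsl24d1. By overlap, 12 of the 13 were higher with none (10.8% of all genes), as were Rhox6 (0.60) and Rhox9 (0.55). The median difference of the 13 was 0.33, against -0.04 over all genes tested. The defining markers Afp and Ttr stayed low, at no more than 0.289 and 0.988 TPM in any library. Of 17 trophoblast markers 15 were tested. At day 4 in si-CTL, 3 were called higher, Esx1 (2.77 ± 0.10, adjusted p = 8.11e-15), Krt7 (2.27 ± 0.15, adjusted p = 4.69e-11) and Gata3 (1.12 ± 0.11, adjusted p = 2.19e-08), and 2 lower, Phlda2 (-1.74) and Peg10 (-0.94). Their sum was 675 to 772 TPM at day 0, 577 to 638 TPM at day 4 in si-CTL and 870 to 1119 TPM in the day 4 libraries labelled si-Rsl24d1, where 3 of 15 were called higher and 0 lower. With rescue 0 of 15 were called and 4 were higher by the adjusted p alone (2.33% of all genes). Elf5 reached no more than 0.732 TPM and Tpbpa 0.0715 TPM in any library. The part of such cells in the levels of Rhox5, Rhox6 and Rhox9 was not tested.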

How the data were processed

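RNA-seq of 24 CGR8 libraries in 8 groups of 3 was read from 1 deposited table. The authors' values in it are log2(TPM + 1) per gene, made with Salmon and tximport. The study's methods name a stranded total-RNA kit and GRCm38, whereas the labels name a poly-A kit and the submitters' processing notes list STAR 2.7.8a, Salmon 1.4.0 and the human build GRCh38. These conflicts could not be settled. TPM sum to 1000000 in each library, so depth is unknown. The study calls the 3 libraries of a group biological replicates, and the labels do not say which cultures they came from, so p-values measure the spread between these libraries.

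Genes averaging 0.5 or more over the libraries, 16447 in all, were fitted with limma 3.58.1 in R 4.3.3 (1 mean per group, all 24 libraries, intensity trend, Benjamini-Hochberg adjustment, two-sided). Calls needed an adjusted p below 0.01 and over 1.8-fold. The script was tested on simulated data. The 3 members and the gene lists were chosen with earlier results of these data known, and members carry no p. Named genes were the members, Rsl24d1, tested Rhox genes and the 3 highest untested ones, up to 3 called genes per direction of each list by size in si-CTL day 4 against day 0 or si-Rsl24d1 against si-CTL at day 0, the 3 genes of highest correlation with each member, and defining markers near 0. Neighbours were taken from RefSeq (GRCm38.p6), bounded by its protein-coding Rhox genes. Coding sequence came from GENCODE vM21 and start windows from RefSeq. Alternatives were pseudocounts of 0.1 and 2, median-of-ratios scaling, other filters (1, on day 0 levels, chosen after seeing the data), no fold threshold, only the groups compared, a replicate block and leaving out each library. The value of 1 gene that the rule would name is not reported here.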

Additional observations from a re-analysis of the deposited data

Results flagged for a closer look

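The siRNA was accompanied by different effects at day 4 and day 0 without rescue for several Rhox genes. For Rhox5 every library labelled si-Rsl24d1 was below every si-CTL library at day 0 (-0.34) and above at day 4 (0.22), so the effects had opposite signs and differed by 0.56 ± 0.07 (SE). That difference was not tested, since Rhox5 was chosen on these values, and with median-of-ratios scaling the day 4 groups of Rhox5 overlapped.

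The difference between the days was tested in limma for all 13 other Rhox genes, and 4 had an adjusted p below 0.01. It was -0.73 for Rhox10 (0.56 at day 0 and -0.17 at day 4, adjusted p = 0.00647), -0.64 for Rhox13 (0.12 and -0.52, adjusted p = 0.00144), -0.65 for Rhox2a (-0.18 and -0.83, adjusted p = 0.00342) and -0.86 for Rhox7a (0.25 and -0.61, adjusted p = 0.00733). With no filter on low values the adjusted p of Rhox10, Rhox2a and Rhox7a were 0.0255, 0.0121 and 0.0311, and with 0.1 added to the TPM those of Rhox2a and Rhox7a were 0.13 and 0.0413. On leaving out each of 12 libraries in turn, the adjusted p rose above 0.01 in 9 cases for Rhox10, 8 for Rhox7a, 4 for Rhox2a and 0 for Rhox13. Of the 13 genes, 7 entered the filter through their day 4 values, Rhox7a among them. For these 7 the low day 0 values leave little room for an siRNA effect at day 0, so the difference in part repeats the day 4 effect.

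For Rhox2a the siRNA effect at day 4 also differed between the rescue states, by 0.84 (0.01 with and -0.83 without rescue, adjusted p = 0.00275 in limma), and the adjusted p rose above 0.01 without the day 4 library labelled si-Rsl24d1 replicate 2 (0.78).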

How the results depend on the processing

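Scaling and the value added to the TPM moved the members' differences, and no alternative turned the sign of a member's difference between the days or of its day 4 siRNA difference. For day 4 minus day 0 in si-CTL, median-of-ratios scaling gave 2.03 for Rhox5, 3.01 for Rhox6 and 2.96 for Rhox9, adding 0.1 gave 3.04 for Rhox6 and 2.99 for Rhox9, and adding 2 gave 2.67 and 2.63. For the siRNA at day 4 without rescue, scaling gave 0.063 for Rhox5, 0.59 for Rhox6 and 0.46 for Rhox9. Leaving out each library gave 1.82 to 1.91 (Rhox5), 2.82 to 2.90 (Rhox6) and 2.72 to 2.89 (Rhox9) between the days, 0.16 to 0.26, 0.68 to 0.80 and 0.56 to 0.67 for the siRNA at day 4, and -0.36 to -0.32, -0.09 to -0.01 and -0.03 to 0.15 for the siRNA at day 0.

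Of the other Rhox genes, 6 were called higher at day 4 in si-CTL with 2 added to the TPM and 4 with a filter at a mean of 1.5, which tests fewer of them, against 11. The 1 called lower with the siRNA at day 4 became 0 with 2 added, with the filter of 1.5 or with only the groups compared, 2 with scaling and 7 with no fold threshold, and 0 to 2 on leaving out a library. A filter on the day 0 mean, chosen after seeing the data, left 6 of them and gave 5 called higher at day 4. Neighbours called higher became 2 with scaling, 0 with the filter of 1.5 and 3 with no fold threshold, and those called lower 4 with no fold threshold. With no fold threshold 15 H3K9 factors and 8 pluripotency markers were lower, and 16 germline genes, 8 germ cell regulators and 6 trophoblast markers were higher. Scaling gave 5 germ cell regulators. Endoderm markers called higher were 3 to 6 on leaving out a library, with 3 without si-CTL day 4 replicate 1. The sign turned for Rhox4e with the siRNA at day 4 without si-CTL replicate 1 (0.0095) or si-Rsl24d1 replicate 2 (0.0158), with a range of -0.22 to 0.0158 over left-out libraries, and for Rsl24d1 at day 4 without si-Rsl24d1 replicate 1, with a range of -0.076 to 0.0031. The cause of these moves was not tested.

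Replicate numbers did not pair the libraries, since 4 of 84 same-numbered pairs had a residual correlation above 0.1 (mean -0.02). With a replicate block the called genes went from 268 to 263 for the siRNA at day 4 and from 2469 to 2467 between the days in si-CTL, and 11 other Rhox genes were called higher. Depth is unknown, so values under about 1 TPM, where most other Rhox genes lie at day 0, rest on an unknown number of reads.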
